A study of Saccharomyces cerevisiae with 32 samples.

Results

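The wild type strain BY4742 was examined by setting its 4 Ribo-Seq libraries against its 4 RNA-Seq libraries, 8 of the 32 libraries of the series analysed here. The other 24 libraries come from *tma46*, *eif2a* and *stm1* deletion strains, 8 each. BY4742 (*wt*) is a haploid *Saccharomyces cerevisiae* strain of mating type α with the genotype *his3Δ1 leu2Δ0 lys2Δ0 ura3Δ0*, and the deletion strains share this background. The cultures were in exponential growth in glucose medium, YPD or SD by the labels, which do not say which library had which, and YPD by the methods. The labels place cycloheximide, an inhibitor of elongation, in the medium before harvest, whereas the methods name it in the buffers only. Each of the 4 cultures gave 1 library of each assay from the same lysate and carries its own batch number, so the libraries were compared within cultures and batch cannot be told apart from culture.

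Ribosome profiling digests the mRNA that ribosomes do not cover and sequences the fragments they protect. RNA-Seq of the same lysate, here after oligo(dT) selection, gives the amount of each mRNA. The ratio of the 2 measures, ribosome occupancy (RO), is high where an mRNA carries many ribosomes along its coding sequence and low where few ribosomes reach it. In yeast, short open reading frames before the main start codon, the bases around that start codon and codon choice are known to accompany differences in translation between mRNAs. RO counts ribosomes and not proteins, so slow and frequent ribosomes look the same.

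The sequences of the 2 genes with the lowest RO among those tested are shown first, since both are textbook cases of translational control. *GCN4* encodes the activator of amino acid biosynthesis genes, and its 5′ leader holds 4 short upstream open reading frames that keep ribosomes from the main start codon in well-fed cells. In the 600 bases before the *GCN4* start codon the R64 sequence holds 4 ATG, each opening a frame of 2 or 3 codons, with start and stop codons in capitals.
GCN4 upstream ORF 1: ATGgcttgcTAA
GCN4 upstream ORF 2: ATGtgtTAA
GCN4 upstream ORF 3: ATGtacccgTAG
GCN4 upstream ORF 4: ATGtttccgTAA
They lie on the minus strand of chromosome V (R64), at chrV:140113-140124, chrV:140048-140056, chrV:139928-139939 and chrV:139903-139914, and begin 361, 293, 176 and 151 bases before the start codon. *HAC1* encodes the transcription factor of the unfolded protein response. Its mRNA keeps an intron that blocks translation until the endonuclease Ire1 removes it. The 252-base intron lies on the plus strand of chromosome VI, and its ends are shown with the intron in capitals.
HAC1 first splice site: cgtaatccagCCGTGATTAC
HAC1 second splice site: GTACTGTCCGaagcgcagtc
These sites are at chrVI:75830-75849 and chrVI:76082-76101.

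*GCN4* (YEL009C, chrV:138918-139763) was among the more abundant mRNAs and carried few footprints. Its RNA-Seq level was 1486, 1456, 1305 and 1616 CPM (read counts scaled to a common library size with TMM factors) in cultures 1 to 4, and its Ribo-Seq level was 26.1, 23.9, 42.6 and 37.9 CPM. The 2 sets of values lay far apart in every culture, and the fitted log2 RO was -5.50 (SE 0.11, edgeR FDR 5.06e-17), a 45.3-fold deficit of footprints. *HAC1* (YFL031W, chrVI:75179-76147) had 528, 550, 475 and 552 CPM in RNA-Seq against 24.2, 21.1, 26.7 and 19.0 CPM in Ribo-Seq. Its log2 RO was -4.54 (SE 0.09, edgeR FDR 6.30e-17), 23.3-fold lower than its mRNA level predicts.

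RO was tested for 4625 genes, those that reached 10 CPM in 4 or more libraries of each assay over the whole series, of which 4617 are protein-coding. The test was edgeR's quasi-likelihood test with the culture as block, and a gene was called where the FDR was under 0.05 and log2 RO was at least 1 in size. By this rule 238 genes (5.15% of those tested) were higher and 491 (10.6%) were lower in footprints than in mRNA. At an FDR under 0.05 alone, 1601 genes (34.6%) lay above 0 and 1845 (39.9%) below 0. All 729 called genes lay on the same side of 0 in each of the 4 cultures. The calls were made from these same cultures, so this is a description and no separate support. RO is a relative scale whose 0 is set by TMM. With upper-quartile scaling the calls were 165 higher and 612 lower, with the median of all genes shifted by -0.13. With library totals alone they were 76 and 1083, with a shift of -0.44.

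**Figure D1:**
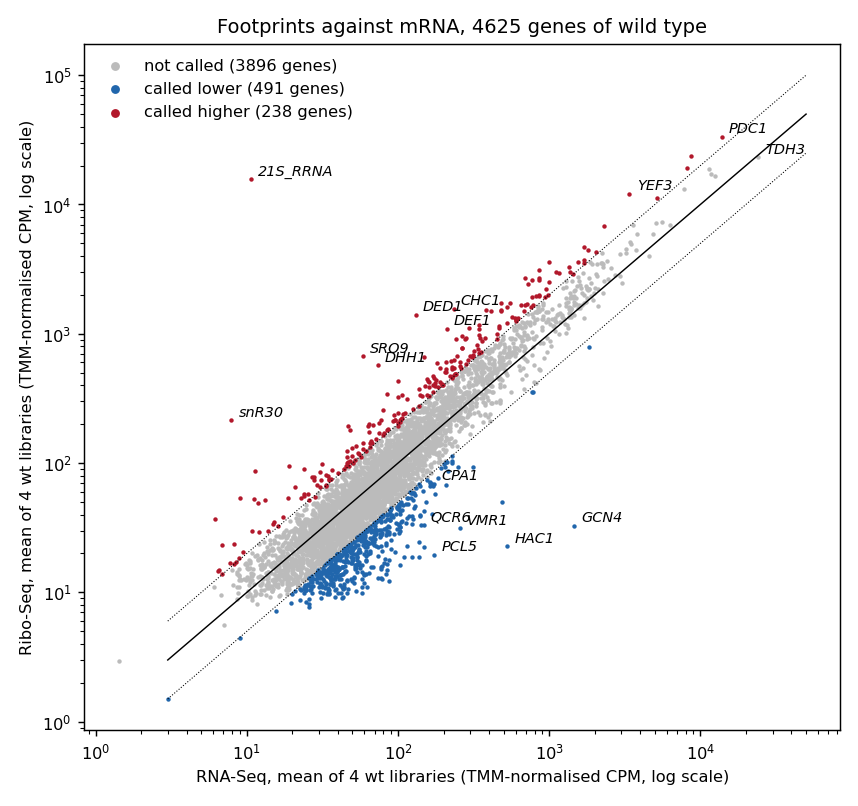
Mean Ribo-Seq level against mean RNA-Seq level of each of the 4625 genes tested in *wt*, both in TMM-normalised CPM on log axes and averaged over 4 libraries. The solid line marks equal values and the dotted lines a 2-fold difference. Red points are the 238 genes called higher and blue points the 491 called lower. *GCN4* and *HAC1* lie far below the line, and the mitochondrial *21S_RRNA* far above it.

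RNA-Seq and Ribo-Seq levels rose together across genes, and the SD of RO across genes was smaller than that of either. Over the 4625 genes the mean log2 levels had a Pearson's r of 0.92 and a Spearman's rho of 0.89, a description across genes, which are not replicates. The SD across genes was 1.56 for the log2 RNA-Seq level and 1.87 for the log2 Ribo-Seq level, so footprints were spread more widely than mRNA, and it was 0.76 for log2 RO. The quartiles of log2 RO lay at -0.53 and 0.38 around a median of -0.06. The lowest 1% lay below -2.07 and the highest 1% above 1.64. The cultures gave like values: the log2 RO of 2 cultures correlated across genes at r = 0.90 to 0.94, and the median SD of a gene over the 4 cultures was 0.16. Total counts were 4215500 to 6334413 per RNA-Seq library and 3079398 to 4122370 per Ribo-Seq library, so 10 CPM is at least 42.2 reads and 30.8 reads. *LEU2*, *LYS2* and *URA3*, deleted in BY4742, had 0 counts in the 4 RNA-Seq libraries, which allows up to 3 counts each, and at most 3 in any Ribo-Seq library. *HIS3*, listed as *his3Δ1* in the genotype, was not empty. Its mRNA averaged 77.4 ± 8.43 CPM and its footprints 81.2 ± 9.72 CPM (SD, n = 4, before TMM scaling). Which part of the gene these reads cover was not tested. Of the mating type genes, *STE3* and *MF(ALPHA)1*, which mark α cells, were at 196 ± 37.2 and 883 ± 129 CPM in RNA-Seq (SD, n = 4, before TMM scaling). *STE2*, *MFA1* and *MFA2*, which mark a cells, were at 5.48 ± 2.06, 0.677 ± 0.401 and 0.389 ± 0.387 CPM.

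After *GCN4* and *HAC1*, the lowest RO among genes tested belonged to *PCL5* and *VMR1*. Genes that failed the filter in Ribo-Seq are not ranked. Some of them had lower log2 ratios of summed counts than *PCL5*, such as *BRE4* (-4.17) and *GUT1* (-4.07), or than *HAC1*, such as *TRK2* (-5.40). *PCL5*, a cyclin that directs the kinase Pho85 to the Gcn4 protein for its degradation, had 184, 148, 157 and 205 CPM of mRNA and 24.9, 16.8, 18.1 and 18.3 CPM of footprints. Its groups did not overlap, and its log2 RO was -3.16 (SE 0.10). *VMR1*, an ABC transporter of the vacuole membrane, had 304, 234, 241 and 244 CPM of mRNA and 41.3, 33.1, 22.8 and 28.5 CPM of footprints (log2 RO -3.03, SE 0.09). The other 8 of the 12 lowest genes had log2 RO from -2.88 to -2.57 and 12.2 to 22.5 CPM of footprints on average, close to the limit of 10 CPM. They were *PPS1*, a protein phosphatase, *UCC1*, an F-box protein, *LST4*, a regulator of TORC1 signalling, *HST1*, a histone deacetylase, and *APP1*, a phosphatidate phosphatase, along with *TOK1*, a potassium channel, *RGL1*, a regulator of Rho1 signalling, and *QDR3*, a multidrug transporter. All 12 had an edgeR FDR of 6.58e-12 or lower.

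**Figure D2:**
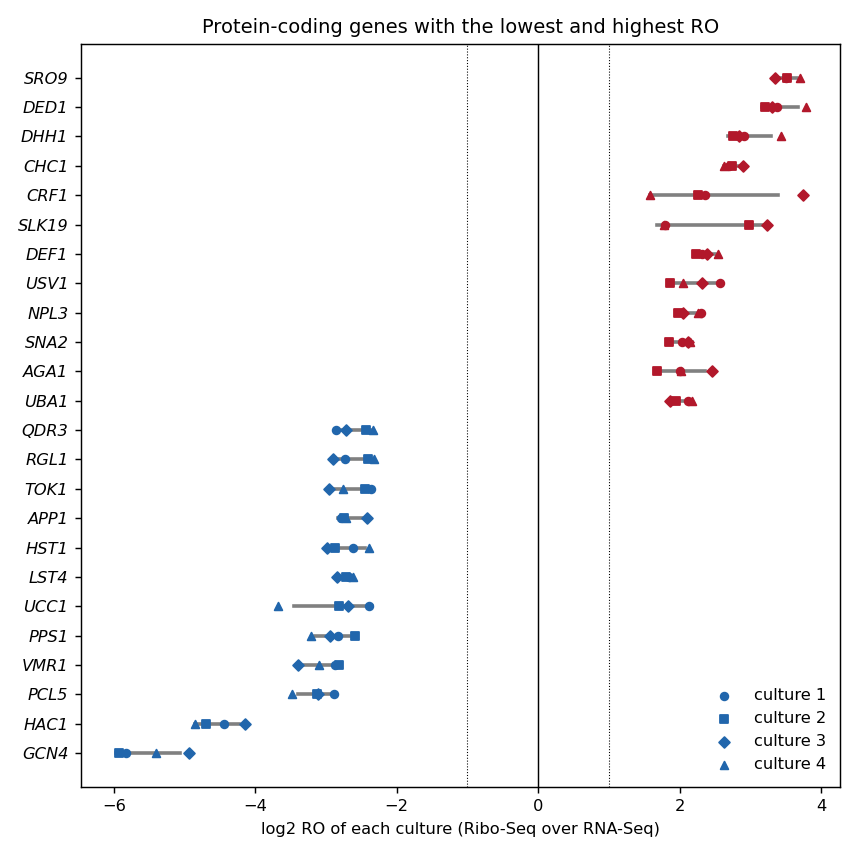
Log2 RO in each of the 4 *wt* cultures, among genes tested, for the 12 lowest genes and the 12 highest protein-coding genes. Symbols are the cultures, grey bars reach 1 SD to each side of their mean, and dotted lines mark -1 and 1. *CRF1* and *SLK19* differ most between cultures among the genes above 0, and *GCN4* and *UCC1* among those below it.

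An ATG shortly before the start codon was found in 4 of the 12 lowest genes and in 0 of the 12 highest protein-coding genes, against 15.7% of all protein-coding genes tested. The search took the letters ATG in the 50 bases before the start codon, on the coding strand, in any frame. These 4 sites are shown with the upstream ATG in capitals.
VMR1 upstream ATG: gcaacctcaATGgttcactac
UCC1 upstream ATG: gtttgtactATGcctattggc
RGL1 upstream ATG: tggttttctATGggtatataa
QDR3 upstream ATG: ttaacgtctATGctaggaccg
They lie 20, 41, 40 and 31 bases before the main start codon, at chrVIII:32765-32785 (minus strand), chrXII:586414-586434 (plus), chrXVI:426184-426204 (plus) and chrII:323965-323985 (minus) of R64. All 4 are out of frame with the main start codon. The frame opened in *RGL1* is 3 codons long and ends before the start codon, and those of *VMR1* and *QDR3* run on past it. The frame of *UCC1* is 14 codons long, and its stop codon overlaps the main start codon. The *GCN4* frames lie farther upstream than 50 bases and are not in this count. With a window of 100 bases, *HST1* and *TOK1* of the lowest genes also had an ATG. So did *SRO9*, *DED1*, *SLK19*, *USV1*, *NPL3* and *UBA1* of the highest, so the contrast between the extremes holds for the shorter window only. Transcript starts were not used, so an ATG near the start codon may lie outside the mRNA.

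The highest RO among protein-coding genes tested belonged to *SRO9*, *DED1* and *DHH1*. *SRO9*, an RNA-binding protein of the La family, had 60.4, 52.2, 65.5 and 55.6 CPM of mRNA, whereas its footprints came to 683, 601, 669 and 726 CPM, all far above the mRNA values. Its log2 RO was 3.52 (SE 0.07, edgeR FDR 3.48e-17), an 11.5-fold excess of footprints. *DED1*, a DEAD-box helicase of translation initiation, had 138, 136, 141 and 108 CPM against 1431, 1255, 1399 and 1496 CPM (log2 RO 3.42, SE 0.08). *DHH1*, a DEAD-box helicase of mRNA decapping and translational repression, had 77.1, 81.9, 80.9 and 53.2 CPM against 579, 555, 579 and 577 CPM (log2 RO 2.98, SE 0.09). In *DED1* and *DHH1* culture 4 had the lowest mRNA value and footprints like those of the other cultures.

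*CHC1*, the clathrin heavy chain, had 248, 236, 224 and 224 CPM of mRNA and 1611, 1573, 1678 and 1393 CPM of footprints, with a log2 RO of 2.74 (SE 0.06). Its cultures lay close together, at 2.63 to 2.90. *DEF1*, which promotes the degradation of stalled RNA polymerase II, was at 2.37 (SE 0.06) and *NPL3*, an mRNA-binding protein of the SR type, at 2.15 (SE 0.06). *SNA2*, *AGA1*, which encodes the anchor subunit of the a-cell agglutinin, and *UBA1*, the ubiquitin-activating enzyme, were at 2.04, 2.03 and 2.02. *SLK19*, a kinetochore protein, had 26.4, 10.8, 12.2 and 26.1 CPM of mRNA and 86.2 to 115 CPM of footprints (log2 RO 2.38, SE 0.18), so its spread came with the mRNA values. *CRF1*, a corepressor of ribosomal protein genes, had only 4.78 to 8.45 CPM of mRNA (log2 RO 2.48, SE 0.23), and *USV1*, a transcription factor, 8.76 to 12.4 CPM (2.20, SE 0.13). Both took the opposite sign, -3.28 and -1.32, when reads of both strands were counted, and *AGA1* fell to 0.10 there, so the excess in these 3 genes rests on the strand assignment.

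The first bases before the start codon are shown for 3 genes of low and 3 of high RO, with the base at position -3 and the start codon in capitals.
GCN4 start codon: aatacaaatAaaATGtcc
HST1 start codon: aaaaaaatcTaaATGaac
TOK1 start codon: atttctataTatATGaca
SRO9 start codon: tctctgcccAcgATGtct
DED1 start codon: gcatttcatAttATGgct
DHH1 start codon: aaaatagtaGtaATGggt
They lie at chrV:139758-139775 (minus strand), chrXV:201874-201891 (minus), chrX:256807-256824 (minus), chrIII:58673-58690 (minus), chrXV:722899-722916 (plus) and chrIV:171925-171942 (minus). An A at position -3 is the base most often found in yeast mRNAs, and *GCN4* has it despite its RO. Of the 12 lowest genes 8 had A there, and of the 12 highest protein-coding genes 6 did, so the extremes were not set apart by this base.

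Over all 4617 protein-coding genes tested, RO moved with the start codon surroundings as a description over genes. The median log2 RO was 0.03 for the 2903 genes with A at -3, -0.11 for the 893 with G, -0.26 for the 372 with C and -0.28 for the 449 with T. A at -3 was held by 62.9% of all genes, 49.5% of the 489 protein-coding genes called lower and 69.2% of the 234 called higher. The 727 genes with an ATG in the 50 bases before the start codon had a median of -0.38, against 0.00 for the 3890 without. Such an ATG preceded 33.9% of the genes called lower (166 genes) and 2.14% of those called higher (5 genes). These differences are small beside the spread of single genes within each class.

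Codon choice went with RO more closely than length or mRNA level did. Codon adaptation was scored against the codon use of 132 ribosomal protein genes, so a high score means codons like theirs. From the lowest to the highest quintile of this score the median log2 RO was -0.43, -0.34, -0.15, 0.14 and 0.45. The share of genes called lower went from 23.3% in the lowest quintile to 1.30% in the highest, and the share called higher from 1.41% to 15.6%. Spearman's rho across genes was 0.50 for codon adaptation, 0.32 for the RNA-Seq level per kb and -0.17 for coding length. By mRNA level per kb the quintile medians were -0.28, -0.26, -0.13, 0.04 and 0.31, so RO was higher for abundant mRNAs. A trend of RO over the mRNA level was then taken out, with the level in CPM and not per kb. The medians still climbed over the codon adaptation quintiles, at -0.28, -0.18, -0.01, 0.18 and 0.23. Over the quintiles of mRNA level per kb they were -0.15, -0.08, 0.01, 0.13 and 0.05, so the per-kb dependence was only partly removed. The ribosomal protein genes that set the scale are among the genes scored.

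**Figure D3:**
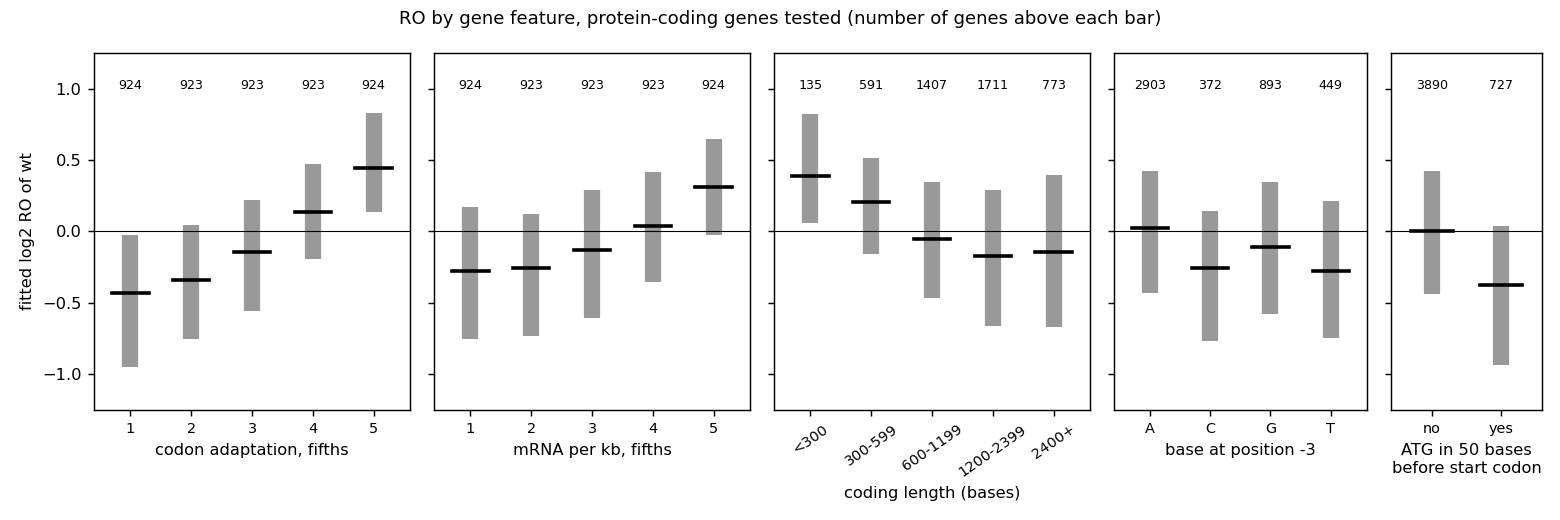
Fitted log2 RO of *wt* by gene feature for 4617 protein-coding genes. Black lines are medians, grey bars run from the lower to the upper quartile, and the number of genes stands above each bar. Medians climb from -0.43 to 0.45 over the codon adaptation quintiles and are lower where an ATG precedes the start codon. By coding length they fall from 0.39 in the shortest class to -0.17 at 1200 to 2397 bases, and the longest class is at -0.14.

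By coding length the shortest class had the highest median. The 135 genes under 300 bases had a median log2 RO of 0.39, those of 300 to 597 bases 0.21, those of 600 to 1197 bases -0.05, those of 1200 to 2397 bases -0.17 and those of 2400 bases or more -0.14. In the lowest codon adaptation quintile the 63 genes of 2400 bases or more had a median of -0.92, and 26 of them were called lower. In that quintile the medians fell from class to class with length, from 0.09 for genes under 300 bases. In the highest quintile they did not, at 0.65, 0.35, 0.39, 0.48 and 0.87 from the shortest class to the longest, where 35 of 85 genes were called higher. The upstream ATG went with a lower RO on both sides of the codon scale. Below the median of codon adaptation the median was -0.59 with an upstream ATG (505 genes) and -0.31 without, and above it -0.04 (222 genes) and 0.27. RNA-Seq and Ribo-Seq counts of one gene share its length, so the ratio was not scaled by length. This does not exclude a technical effect of length. Genes that failed the filter in Ribo-Seq are absent from every length class. Whether the filter, or a loss of reads from short genes that differs between RNA-Seq and Ribo-Seq, shifts the class medians was not tested.

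Of 19 genes listed for known control by upstream open reading frames or by splicing, 17 passed the filter, 8 were called lower and 0 higher, with a median log2 RO of -0.65. Over all genes tested 10.6% were called lower and the median was -0.06. Beside *GCN4* and *HAC1*, the genes called lower were *HOL1*, a polyamine transporter (-1.69, SE 0.09), *CLN3*, the G1 cyclin (-1.64, SE 0.12), *PPR1*, the activator of pyrimidine synthesis genes (-1.59, SE 0.14), *MKK1*, a kinase of the cell wall integrity pathway (-1.46, SE 0.11), *CPA1* and *INO2*. *CPA1*, a subunit of the arginine-specific carbamoyl phosphate synthetase, whose upstream peptide stalls ribosomes when arginine is plentiful, had 158, 169, 193 and 173 CPM of mRNA and 80.2, 65.7, 60.3 and 71.6 CPM of footprints. Its groups did not overlap (log2 RO -1.32, SE 0.09). *INO2*, the activator of phospholipid genes, was at -1.14 (SE 0.14) and was no longer past a test against a 2-fold difference.

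Other members of that list lay nearer 0. The stress regulators *CAD1* and *YAP1* were at -0.65 and -0.30, *FOL1* of folate synthesis at -0.46 and *SCO1* of cytochrome oxidase assembly at -0.38, each with an edgeR FDR under 0.05 and none called. *HAP4* (-0.10) and *SCH9* (0.05) did not pass the FDR threshold. *LEU4* and *RPC11* were at 0.25 and 0.37. *WSC3* failed the Ribo-Seq filter, at 45.3 ± 6.16 CPM of mRNA against 4.71 ± 0.662 CPM of footprints (SD, n = 4), and *MBR1* failed both. Of the 3 genes whose protein needs a programmed frameshift, *EST3* of telomerase was at -0.95 (SE 0.12), *OAZ1*, the ornithine decarboxylase antizyme, at -0.49 (SE 0.14) and *ABP140* at 0.16 (edgeR FDR 0.061). *EST3* came past -1 with upper-quartile scaling, at -1.07.

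The counts of each list below are to be read against the 5.15% of all genes called higher, the 10.6% called lower and the median of -0.06. Of 28 initiation factors 8 were called higher and 0 lower (median 0.43), led by *DED1*, *NIP1* of eIF3 (1.72), the poly(A)-binding protein *PAB1* (1.67) and the eIF4G scaffold *TIF4632* (1.47). *GCD1* of eIF2B was lowest, at -0.69. The eIF4E-binding proteins *CAF20* (1.38) and *EAP1* (1.19), which repress cap-dependent initiation, were also called higher. List members named here and below beyond the extremes of a list were chosen after their values were seen. Of 13 elongation and termination factors 4 were called higher and 0 lower (median 0.48), with *YEF3*, the fungal elongation factor 3, at 1.83 and *SUP35*, the release factor eRF3, at 1.30. *YEF3* had 3193 to 3588 CPM of mRNA and 11568 to 12541 CPM of footprints. The lowest, *EFT1* (-0.52), encodes elongation factor 2 together with the near-identical *EFT2*, so reads of both are largely left out as multiply mapping.

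All 18 aminoacyl-tRNA synthetases listed had an edgeR FDR under 0.05 and lay above 0, 6 of them called higher, with a median of 0.80. They ran from *TYS1* for tyrosine (0.23) to *CDC60* for leucine (1.65), whose cultures lay at 1.62 to 1.66. Of 57 small subunit genes of the cytosolic ribosome 3 were called higher and 1 lower (median 0.24), and of 81 large subunit genes 5 were higher and 2 lower (median 0.30). At an edgeR FDR under 0.05 alone, 35 and 56 of them lay above 0 and 11 of each below it, where 34.6% and 39.9% of all genes did. After the trend over the mRNA level was taken out, the medians took the other sign, at -0.25 and -0.17. Their extremes were *RPS6B* (-1.11), *RPS29B* (1.15), *RPL4A* (-1.21) and *RPL41A* (2.01). In 27 of the small subunit and 52 of the large subunit genes under 90% of the 28-base windows of the coding sequence are unique in the genome, the copies *RPS6B*, *RPL4A* and *RPL41A* among them, so their values are uncertain. The 73 mitochondrial ribosomal proteins had a median of -0.01 and 0 calls, although 22 lay above and 19 below 0 at an edgeR FDR under 0.05. They spanned *MRP1* (-0.92) to *MRPL44* (0.90).

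**Figure D4:**
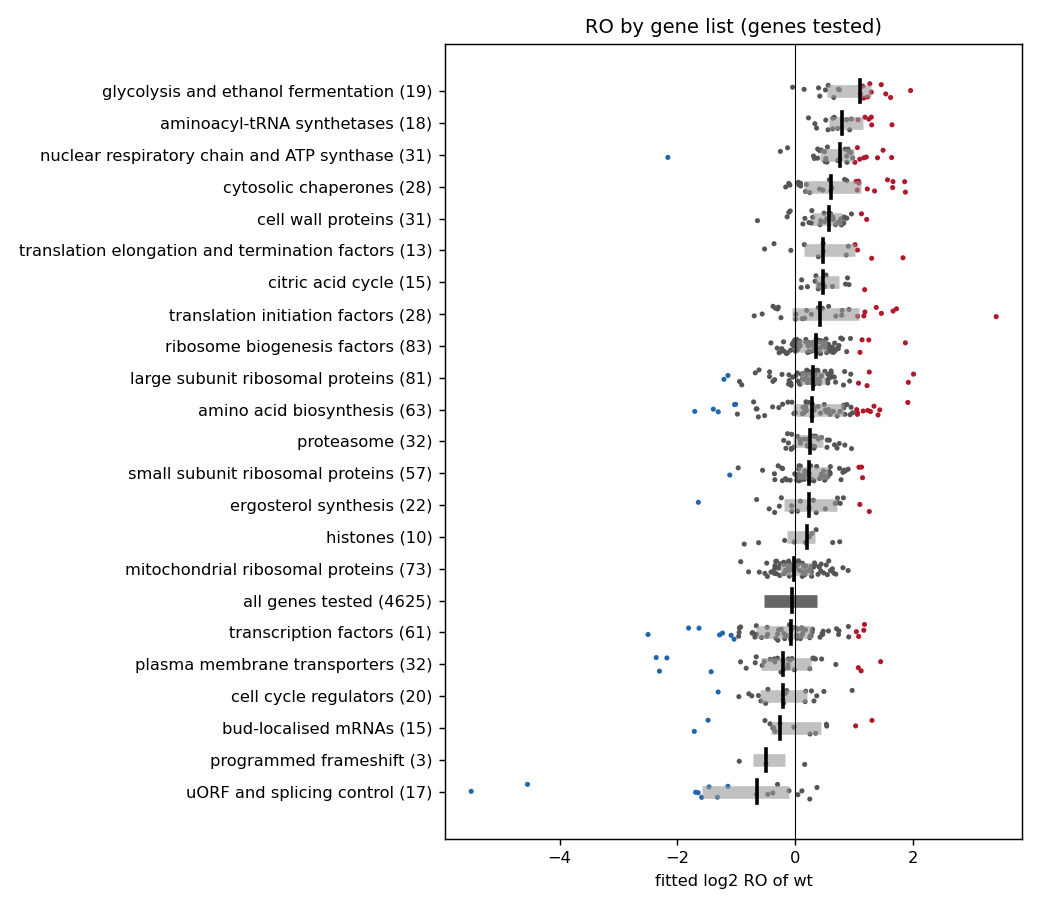
Fitted log2 RO of *wt* by gene list, with the number of members tested in brackets and all 4625 genes for comparison. Points are genes (red at 1 or more, blue at -1 or less), grey bars run from the lower to the upper quartile of each list and black lines are medians. Glycolysis has the highest median, 1.11 (0.57, and no longer the highest, once the trend over mRNA level is taken out), and the list of upstream frames and splicing the lowest, -0.65.

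Glycolysis and ethanol fermentation had the highest median of the lists of protein-coding genes, 1.11, with 10 of 19 genes called higher and 0 lower. After the trend over mRNA level was taken out its median was 0.57, below the 0.81 of the respiratory chain and ATP synthase genes. *PFK2* and *PFK1*, the subunits of phosphofructokinase, were at 1.96 and 1.62, the hexokinases *HXK1* and *HXK2* at 1.54 and 1.11, and pyruvate kinase *CDC19* at 1.46. *PDC1*, pyruvate decarboxylase, had 13120 to 15210 CPM of mRNA and 32231 to 34731 CPM of footprints (log2 RO 1.27, SE 0.07). It stayed above 0 but under 1 with library totals alone (0.83) and after the trend over mRNA level was taken out (0.56). *TDH3*, glyceraldehyde-3-phosphate dehydrogenase, was at -0.04 (edgeR FDR 0.623), with only 52.8% of its windows unique. Per kb of coding sequence, *TDH3*, *PDC1*, *GPM1*, *FBA1* and the cell wall gene *CCW12* carried the most footprints of all genes, at 17183 to 23227 CPM per kb. Their log2 RO values were -0.04, 1.27, 0.75, 0.74 and 0.13.

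Among the other metabolic groups, nuclear respiratory chain and ATP synthase genes had a median of 0.76 (8 of 31 called higher, 1 lower) and citric acid cycle genes 0.48 (1 of 15 higher, *KGD1*, 1.18). Short subunits of the respiratory chain led, such as *COX7* (1.64) and *COX9* (1.50). *QCR6*, a subunit of the cytochrome bc1 complex, stood apart with 137, 148, 123 and 183 CPM of mRNA and 19.5, 39.0, 34.0 and 39.2 CPM of footprints (log2 RO -2.16, SE 0.11). Of 63 amino acid biosynthesis genes 10 were called higher and 5 lower (median 0.29). Methionine synthase *MET6* was at 1.92 and the bifunctional or multi-step enzymes *ARO1* and *TRP5* at 1.24 and 1.41. *SER3* of serine synthesis (-1.70), *ARG8* (-1.39), *MET3* (-1.30), *MET10* (-1.03) and *TRP1* (-1.01) were lower. Of 22 ergosterol genes *ERG13* (1.26) and *ERG1* (1.10) were higher and the lanosterol synthase *ERG7* (-1.64) lower.

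Cytosolic chaperones had 11 of 28 genes called higher and 0 lower (median 0.62). *HSP82* and *HSC82*, the copies of Hsp90, were at 1.88 and 1.57, with under 90% unique windows, the nucleotide exchange factor *SSE1* at 1.86, the disaggregase *HSP104* and the co-chaperone *STI1* at 1.66 each. *HSP82* had 264 CPM of mRNA in culture 1 and 447 to 471 in the others, yet its log2 RO lay at 1.80 to 1.96 in all 4. The subunits of the chaperonin CCT lay near 0, with *CCT4* lowest at -0.16. The 32 proteasome genes gave 0 calls, at a median of 0.25, although 20 lay above and 2 below 0 at an edgeR FDR under 0.05. *RPN5* was highest at 0.96 and *PRE2* lowest at -0.19. The 83 ribosome biogenesis factors had 4 genes called higher, near the 5.15% of all genes, and 0 lower (median 0.35), from *NSA1* (-0.41) to *RRP5* (1.88). Of 31 cell wall proteins *HSP150* (1.22) and *YPS1* (1.13) were called higher, with *EXG2* lowest at -0.64. The 10 histone genes tested gave 0 calls (6 above and 3 below 0 at an edgeR FDR under 0.05), from *HHF2* (-0.86) to *HHO1* (0.76).

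Transporters and regulators are given beside the shares over all genes tested, 10.6% lower and 5.15% higher. Of 32 plasma membrane transporters 4 were called lower and 3 higher (median -0.20). *MEP3*, an ammonium permease, had 76.2 to 93.4 CPM of mRNA and 14.9 to 19.1 CPM of footprints (log2 RO -2.36, SE 0.11), and the potassium transporter *TRK1* and the phosphate transporter *PHO87* were at -2.30 and -2.18. The peptide transporter *PTR2* (1.46) and the proton pump *PMA1* (1.12) were higher. Of 61 other transcription factors, a list that leaves out the regulators already given with the upstream frames, 7 were lower and 4 higher (median -0.06), near the shares over all genes. *GCR1*, the activator of glycolytic genes, was lowest of these at -2.50 (SE 0.09), with 131 to 153 CPM of mRNA and 22.0 to 26.2 CPM of footprints. *REB1*, *ROX1*, *CBF1* and *RAP1* were called higher, at 1.18, 1.17, 1.08 and 1.04. Of 20 cell cycle regulators listed apart from *CLN3*, *SWE1*, the kinase that restrains mitotic entry, was called lower (-1.31), and *CLB6* was highest at 0.97. Among 15 mRNAs carried to the bud, *WSC2* (-1.71) and *EAR1* (-1.48) were lower and *CPS1* (1.31) and *TCB3* (1.03) higher.

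Of the 7036 genes in the table, 549 passed the filter in RNA-Seq and failed it in Ribo-Seq, and 126 the reverse. Of the 549, 507 are protein-coding in RefSeq and 32 are not in RefSeq. *YCR024C-B* had 1005, 1098, 1124 and 1166 CPM of mRNA and 0, 1, 0 and 1 footprint counts, and *MTC7* 566, 576, 624 and 671 CPM against 1, 5, 2 and 4 counts. Both lie shortly downstream of another gene on the same strand. The gap to *PMP1* (357 CPM in RNA-Seq) is 79 bases for *YCR024C-B*, and the gap to *HYP2* (1432 CPM) is 29 bases for *MTC7*. *YLR285C-A* (90.3 ± 6.78 against 0.768 ± 0.318 CPM) lies 109 bases from *CTS1* (1011 CPM). Whether reads from the neighbour's mRNA end enter these counts was not tested.

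Genes of the same kind with their own known products included *GAL80*, the repressor of galactose genes (111 ± 8.47 CPM of mRNA, 7.60 ± 2.45 CPM of footprints, SD, n = 4), *BRE4* (103 ± 3.80 and 4.22 ± 1.85), *GUT1*, the glycerol kinase (89.7 ± 2.77 and 3.79 ± 2.01), and *HOB2* (83.3 ± 4.94 and 4.80 ± 1.04). The nearest upstream neighbour is on the same strand for *GAL80* (*SUR7*, 283 bases), *GUT1* (*GOS1*, 306 bases) and *HOB2* (*RRG8*, 543 bases), and on the other strand for *BRE4*. The identifiers *YDR154C*, *YBR191W-A* and *YOR309C* completed the 10 with most mRNA. Of 28 genes of meiosis and sporulation only *IME1*, the master regulator of meiosis, passed both filters, at -0.32 (edgeR FDR 0.086). *RED1* and *IME2* had 19.8 ± 4.43 and 13.2 ± 2.01 CPM of mRNA and 0.190 ± 0.236 and 0.0812 ± 0.162 CPM of footprints.

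The highest ratios of all genes tested were those of *21S_RRNA* and *snR30*, both noncoding. The mitochondrial *21S_RRNA* had 8.61, 8.86, 9.99 and 14.9 CPM in RNA-Seq, whereas Ribo-Seq gave 17610, 8170, 23074 and 13981 CPM (log2 RO 10.43, SE 0.17). The small nucleolar RNAs *snR30*, *snR33* and *snR84* were called higher at 4.66, 2.80 and 2.48, *snR86* was not called (0.58, edgeR FDR 0.099), and their values varied far more between cultures than those of mRNAs: *snR33* ran from 17.3 to 157 CPM in Ribo-Seq. These RNAs are not templates of cytosolic translation, and the RNA-Seq libraries were made from oligo(dT)-selected RNA, so their ratio is not a ribosome occupancy. The 126 genes that passed in Ribo-Seq only included *15S_RRNA* (4237 ± 1779 CPM, against 4.60 ± 2.13 in RNA-Seq), *snR37*, *snR45* and *SCR1*, the RNA of the signal recognition particle. Protein-coding genes made up 23 of the 126. Of these *DDR48* had 7.88 ± 2.89 CPM of mRNA and 108 ± 10.4 CPM of footprints, and *MEO1* 0 to 0.713 and 28.2 to 57.7 CPM (SD, n = 4, before TMM). Both were picked after their values were seen, and the order of the highest RO given above holds only for genes tested. *SCR1* had 64.1 to 201 CPM in Ribo-Seq of 3 cultures and 1693 CPM in culture 2. The 8 mitochondrially encoded protein genes listed did not pass the RNA-Seq filter and had 0 to 1.84 CPM on average there. *COX2*, *COX3*, *ATP6* and *OLI1* passed in Ribo-Seq. In *wt* they had 10.2 ± 8.84, 7.99 ± 5.23, 8.25 ± 4.88 and 10.1 ± 8.72 CPM of footprints (SD, n = 4, before TMM). *COX1*, *COB*, *ATP8* and *VAR1* failed in both assays.

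The same fit within each deletion strain, which uses none of the *wt* libraries, called most of the same genes. In *tma46Δ*, which lacks a ribosome-associated protein, 269 genes (5.82%) were called higher and 472 (10.2%) lower. In *eif2aΔ*, which lacks the initiation factor eIF2A, the counts were 302 (6.53%) and 502 (10.9%), and in *stm1Δ*, which lacks a ribosome-binding protein, 305 (6.59%) and 586 (12.7%). Of the 238 genes higher in *wt*, 222 were also higher in *tma46Δ*, 216 in *eif2aΔ* and 206 in *stm1Δ*, and 189 (79.4%) in all 3 strains. Of the 491 lower in *wt*, 413, 417 and 448 were also lower there, and 371 (75.6%) in all 3. These 189 and 371 genes were 91.7% and 94.2% of the genes called in all 3 deletion strains. None of the *wt* calls was called on the opposite side. *GCN4* lay at -5.50 in *wt* and at -5.03, -5.20 and -5.39 in *tma46Δ*, *eif2aΔ* and *stm1Δ*, and *SRO9* at 3.52, 3.40, 3.33 and 3.41.

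The difference in RO between strains was tested as the strain by assay interaction over all 32 libraries. Of 4625 genes, 0 differed between *tma46Δ* and *wt* at an edgeR FDR under 0.05 (105 at an unadjusted p under 0.05), 4 (0.0865%) between *eif2aΔ* and *wt*, and 8 (0.173%) between *stm1Δ* and *wt*. Of the genes with the lowest and highest RO in *wt*, none was among these 12 differences. *SER3*, the lowest amino acid gene, was lower still in *stm1Δ*. The *wt* libraries serve in all 3 tests, and *stm1Δ* shares no batch with *wt*, so strain and batch cannot be told apart there.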

How the data were processed

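Both assays were made from the same 4 *wt* cultures. The authors used cutadapt 2.10 for trimming, seqkit for taking out duplicated footprint reads, bowtie2 for rRNA, and STAR 2.7.9a for mapping to R64 and counting. The deposited values are unnormalized read counts per gene on the sense strand, from uniquely mapped reads, so genes with near-identical copies are undercounted.

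The test was run with edgeR 4.0.16 under R 4.3.3 (glmQLFit, glmQLFTest, TMM, culture and assay as terms), DESeq2 1.42.0 as an alternative, and plotted with matplotlib 3.10.9. CPM of single libraries were TMM-scaled unless stated. FDR values are Benjamini-Hochberg adjusted over 4625 genes. The culture was a block because the labels and methods derive both libraries of a number from 1 lysate. Deviations of the 2 libraries correlated at r = 0.46, 0.17, 0.097 and 0.13 within cultures 1 to 4, and at -0.27 to 0.18 between cultures. Replicates had a chi-square per degree of freedom of 4.70 to 11.0, so none was counted as a duplicate. The labels do not say how the cultures were started, so p-values measure the spread between these 4 cultures. Intervals and the floor of 3 counts cover counting error only.

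Symbols, coordinates and sequences came from RefSeq (R64), where 5956 of 7036 identifiers matched a locus tag and 122 a symbol. Named were the 12 highest and 12 lowest called genes, every tested gene of the upstream frame, splicing and frameshift lists, the extremes of each other list, the 5 genes with most footprints per kb, the 10 with most mRNA failing in Ribo-Seq, and strain markers. Some genes that this rule or the added lists name are not reported here. Since 4 of the 12 highest are noncoding, the 12 highest protein-coding genes were added after their values were seen. Members and lists were chosen with earlier results of these data known. Tested on simulated counts for this comparison, with 200 of 4625 genes changed, the test recovered 90% at a log2 change of 0.5 and 100% at 1 and at 2, with 15 to 18 false calls. In the *wt* data 3446 genes passed an FDR under 0.05, so these rates do not carry over to the calls. Alternatives were other scalings, filters, strand counting and tools, no block, all 32 libraries, the mRNA level trend taken out, and each culture left out.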

Additional observations from a re-analysis of the deposited data

Results flagged for a closer look

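In 2 of 124 groups of 4 cultures examined, 1 culture stood apart from the other 3 by Dixon's criterion, and chance gives about 1 in 20. For *LEU4*, log2 RO was 0.21, 0.23, 0.21 and 0.36 in cultures 1 to 4 (gap over range 0.866). For *RPN5* it was 0.91, 0.90, 1.09 and 0.93 (0.834).

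In 12 cases RO differed between a deletion strain and *wt* by edgeR's interaction test (FDR under 0.05). The strains were compared with the same *wt* libraries. In *eif2aΔ* the differences in log2 RO, deletion strain minus *wt*, were -1.20 for *PDR15*, 1.46 for *CLG1*, 0.63 for *SBP1* and 1.06 for *GDS1*. *CLG1* was at -1.62 in *wt* and -0.15 in *eif2aΔ*, and *PDR15* at -0.59 and -1.79. In *stm1Δ* they were 3.62 for *snR31*, -0.86 for *SER3*, -0.48 for *BLM10*, 0.76 for *SBP1*, -0.77 for *VPS13*, -0.50 for *RET1* and -1.31 for *PDR12*. *STM1* itself, the deleted gene, gave 4.28 from a few remaining reads, so its ratio in *stm1Δ* is not a ribosome occupancy.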

How the results depend on the processing

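The counts of genes called higher, called lower and at an FDR under 0.05 were 238, 491 and 3446. Without the replicate block they were 235, 491 and 3300, and with each culture left out 228 to 274, 469 to 485 and 3209 to 3308. Library totals alone gave 76 higher and 1083 lower. No filter gave 656 and 1181 among 6778 genes, and a mean of 50 CPM gave 92, 79 and 1674 among 2252. A filter on *wt* RNA-Seq alone gave 766 lower. A test against a 2-fold difference (glmTreat) gave 135, 271 and 406. The other settings stayed within 1.5 times of each count. DESeq2 called 276 higher and 436 lower, and all of these 436 and the 238 higher of edgeR were shared. With the trend over mRNA level taken out, 158 of the 238 higher and 329 of the 491 lower genes were kept. With unstranded counts *CRF1* (-3.28) and *USV1* (-1.32) reversed, and the cause was not tested. With library totals alone the medians of the initiation factor, ribosomal protein, ribosome biogenesis, amino acid, proteasome, ergosterol and histone lists fell below 0. The median of all genes tested was -0.49 there, lower than each of these. The medians of both cytosolic ribosomal protein lists and the histones also fell below 0 with the trend taken out. Those of the mitochondrial ribosomal protein, transcription factor and bud-localised lists rose above 0 with the trend taken out. Genes shared between all 3 deletion strains and *wt* were 188 higher and 371 lower without the block. For these shared counts only the block and RLE scaling were varied, and the other planned settings were not run. Genes of low mRNA level, such as *CRF1* at 6.16 CPM, are limited by depth.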

Other observations

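The following lists were assembled after the values had been seen, so their counts are a description with no test. Of 29 peroxins, the proteins that build peroxisomes, 21 passed the filter, 0 were called higher and 6 lower, where 10.6% of all genes tested were lower, with a median log2 RO of -0.53 against -0.06 over all genes. Among those called lower were *PEX2* (-2.10), *PEX6* (-2.06), *PEX8* (-1.50), *PEX29* (-1.22) and *PEX7* (-1.13). *PEX2* encodes a ring finger protein of the import complex, and *PEX6* an ATPase that recycles the import receptor. *PEX11* (0.65) and *PEX19* (0.62) lay above 0. Of the potassium transport genes of the plasma membrane, *TOK1* (-2.62) and *TRK1* (-2.30) were both called lower, and *TRK2* failed in Ribo-Seq with 80.1 ± 3.08 CPM of mRNA and 1.42 ± 0.227 CPM of footprints (SD, n = 4).

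Of 24 DEAD-box RNA helicases 3 were called higher and 1 lower, with a median of 0.48. The higher ones were *DED1* (3.42), *DHH1* (2.98) and *DBP2* (1.07), and the splicing helicase *PRP5* (-1.43) was lower. Of 33 proteins of mRNA binding and decay 9 were called higher and 0 lower, with a median of 0.58. They included *SRO9* (3.52), *NPL3* (2.15), *SCP160* (1.86), *PUB1* (1.71), *PSP2* (1.64) and *PUF2* (1.48), while *GBP2* was lowest at -0.84. Over all genes tested 5.15% were called higher.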
